A study of Mus musculus with 11 samples.

Results

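The Wnt ligands, Frizzled receptors and secreted Wnt antagonists of mouse were measured here in cell lines from liver cancers. The set holds every protein-coding gene whose symbol follows the Wnt, Fzd, Sfrp or Dkk naming pattern, 37 genes of the 36528 that the count tables list. Of these, 19 are Wnt ligands, 10 are Frizzled receptors, 4 are Sfrp genes (Sfrp1, Sfrp2, Sfrp4 and Sfrp5) and 4 are Dkk genes. Members were chosen by symbol alone, and the further family gene Frzb, which carries another type of symbol, is described with the rest of the pathway. The 11 polyA RNA libraries came from lines of tumours with TAZ-S89A (5 libraries), YAP-5SA (3 libraries) or YAP-S127A (3 libraries). In these mutants alanine replaces serines at which Hippo pathway kinases restrain the transcriptional coactivators TAZ and YAP, 1 site in TAZ-S89A and YAP-S127A and further sites in YAP-5SA, which the sample labels spell YAP-S5A. All groups carry a mutant, no group without one was analysed here, and the labels give neither the animals' strain and age nor the promoter that drove the mutant. Nor do they tell if each replicate is a line, tumour or culture of its own. The p-values thus speak of library-to-library variation alone, possibly technical, and the mutant cannot be told apart from the identity of the line.

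Wnt proteins are lipid-modified secreted factors that bind the cysteine-rich domain of Frizzled receptors. Together with the co-receptors Lrp5 and Lrp6 this stabilises beta-catenin, while other Wnt and Frizzled pairs, with Ror2 or Ryk, steer cell polarity and movement without it. Sfrp proteins carry a Frizzled-like domain that captures Wnts, and Dkk1 and its nearest relatives block the Lrp co-receptors. In the liver, Wnts from endothelial cells around the central vein set the metabolic zones of hepatocytes, and Wnt7b and Wnt10a are among the ligands reported in cholangiocarcinoma, a cancer of bile duct cells.

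Total counts per library ran from 20071144 to 49159713. TAZ-S89A replicates 4 and 5, whose sample IDs form a second number series, were the least deep and stood apart from replicates 1 to 3, and within each of these subsets some libraries were very close to each other. By a chi-square of counts per degree of freedom, replicates 4 and 5 differed by 2.01 and replicates 1 and 2 by 5.63, against 101.33 to 217.89 for the other TAZ-S89A pairs, so the 5 libraries are not equally distinct. The same measure was 15.6 to 131.46 for pairs of YAP-5SA libraries and 6.34 to 33.14 for pairs of YAP-S127A libraries. As to the liver label, the hepatocyte markers summed to 2.84 to 4.06 CPM (counts scaled to library size) in TAZ-S89A, 710.1 to 783 CPM in YAP-5SA and 89.5 to 96.2 CPM in YAP-S127A. Apob, the gene for apolipoprotein B, held most of this at 2.09 ± 0.566, 726 ± 46.6 and 76.8 ± 4.82 CPM (SD). Of the 12 markers 1 reached a mean of 1 CPM in TAZ-S89A and 3 in each YAP group, and the albumin gene Alb stood at 0.00446 ± 0.00997, 0.0678 ± 0.0417 and 0.988 ± 0.325 CPM (SD) in TAZ-S89A, YAP-5SA and YAP-S127A. Summed over 11 stellate cell and fibroblast markers, levels ran from 1831 to 3453 CPM in TAZ-S89A, 288 to 386 CPM in YAP-5SA and 6457 to 7006 CPM in YAP-S127A. The 9 biliary and progenitor markers summed to 1765 to 3669, 2723 to 4276 and 467 to 592 CPM in the same order of groups.

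Levels are given as CPM, counts scaled to library size with edgeR's TMM factors, which serve to compare 1 gene between libraries, and values are listed in the order of replicates. Different genes are compared on the authors' nRPKM, which allows for gene length. Coordinates are on GRCm38.p6. Parentheses after a gene hold the log2 fold change from edgeR's quasi-likelihood test, its standard error (SE) and the Benjamini-Hochberg adjusted p, the gene being called at an adjusted p under 0.05. A mean level under 0.1 CPM is called near zero.

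The family was only partly in use. No count was found in any library for Wnt3a and Wnt9b, and Wnt3, Wnt8a, Wnt8b, Dkk1 and Dkk4 were near zero in all 3 groups, which makes 7 of the 37. Near-zero levels, those without a count included, were held by 11 members in TAZ-S89A, 9 in YAP-5SA and 11 in YAP-S127A. At a limit of 0.3 CPM these were 14, 17 and 12 members in TAZ-S89A, YAP-5SA and YAP-S127A, so which group held fewest depended on the limit. By contrast 16 members reached a mean of at least 1 CPM in every group, the ligands Wnt2b, Wnt4, Wnt5a, Wnt7a, Wnt7b, Wnt9a, Wnt10a and Wnt10b and the receptors Fzd1 to Fzd8. Only Wnt5a, Fzd1, Fzd2, Fzd5, Fzd6 and Fzd7 were at or above 10 CPM in all 3 groups. No Sfrp gene reached a mean of 1 CPM in TAZ-S89A or YAP-5SA. The low-count filter left 27 members for testing, 12 ligands, all 10 receptors, 3 Sfrp and 2 Dkk genes. Wnt5b, Fzd10, Sfrp1 and Dkk3 passed it through the libraries of a single group, so that a difference in them was to be found by the way they were selected.

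**Figure D1:**
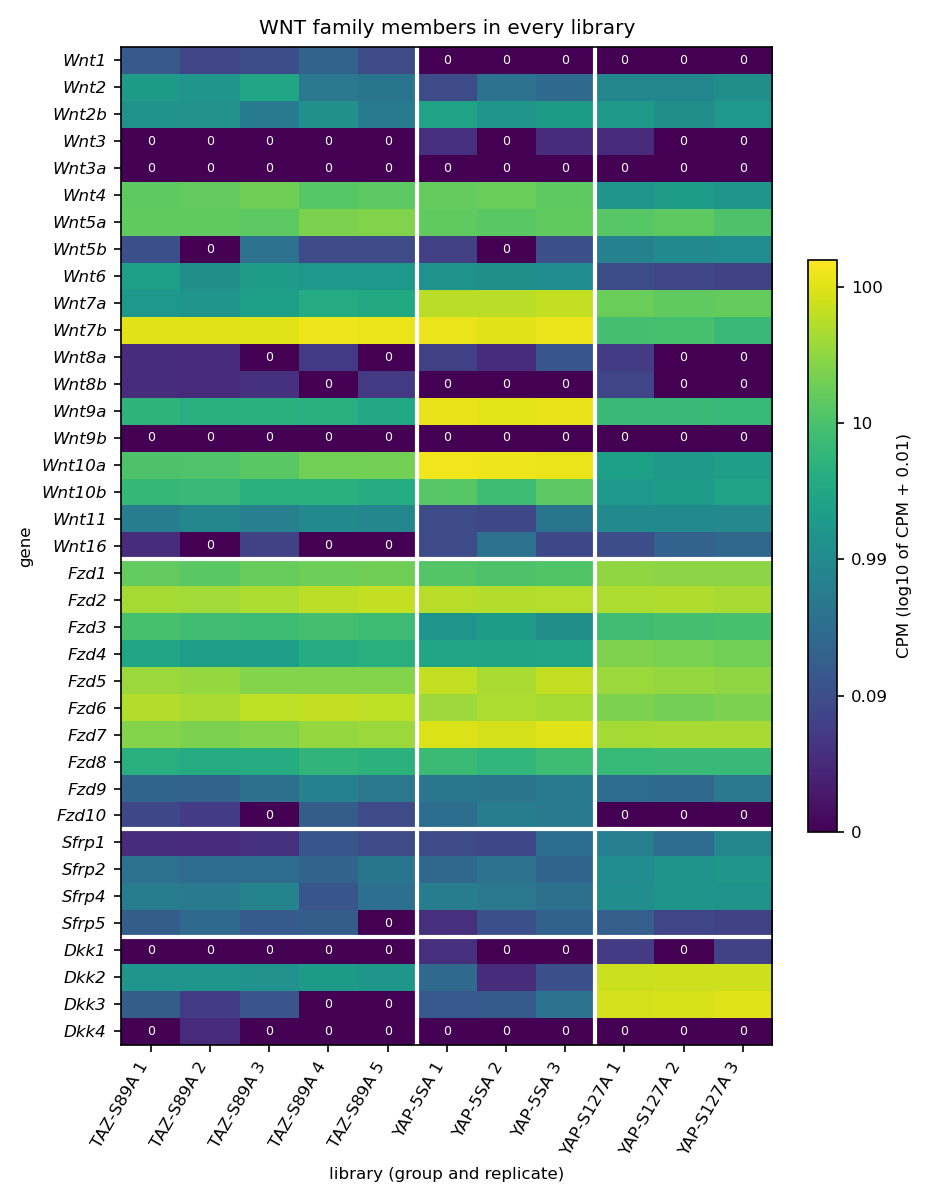
CPM of all 37 members (rows, grouped as ligands, receptors, Sfrp and Dkk genes) in the 11 libraries (columns), coloured on a log10 scale after adding 0.01, with 0 printed where a library had no count. Fzd1 to Fzd8 are filled in across the groups, while Fzd9 is low and Fzd10 is at 0 in every YAP-S127A library. Dkk2 and Dkk3 stand out in YAP-S127A, and Wnt3a and Wnt9b are at 0 in every library.

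Which ligands made up the Wnt transcripts differed between the groups. Summed over the 19 ligands, the level was 37.3 ± 5.72 nRPKM in TAZ-S89A (SD, n = 5), 126 ± 4.8 nRPKM in YAP-5SA and 11.99 ± 0.604 nRPKM in YAP-S127A (n = 3 each), and the ranges of the groups did not overlap. In TAZ-S89A most of this was Wnt7b, with 54.8% of the sum (53.3% to 56.3% over the libraries), followed by Wnt10a with 16.9% and Wnt4 with 8.88%. In YAP-5SA Wnt10a led with 41.3% (39.02% to 43.1%), ahead of Wnt9a with 21.5%, Wnt7b with 16.7% and Wnt7a with 12.4%. In YAP-S127A, the group with the smallest sum, Wnt7a led with 35.4% (33.1% to 36.9%), ahead of Wnt9a with 13.5%, Wnt7b with 13.1% and Wnt5a with 12.5%. These are descriptions of the deposited nRPKM, and no test was made on the sums.

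**Figure D2:**
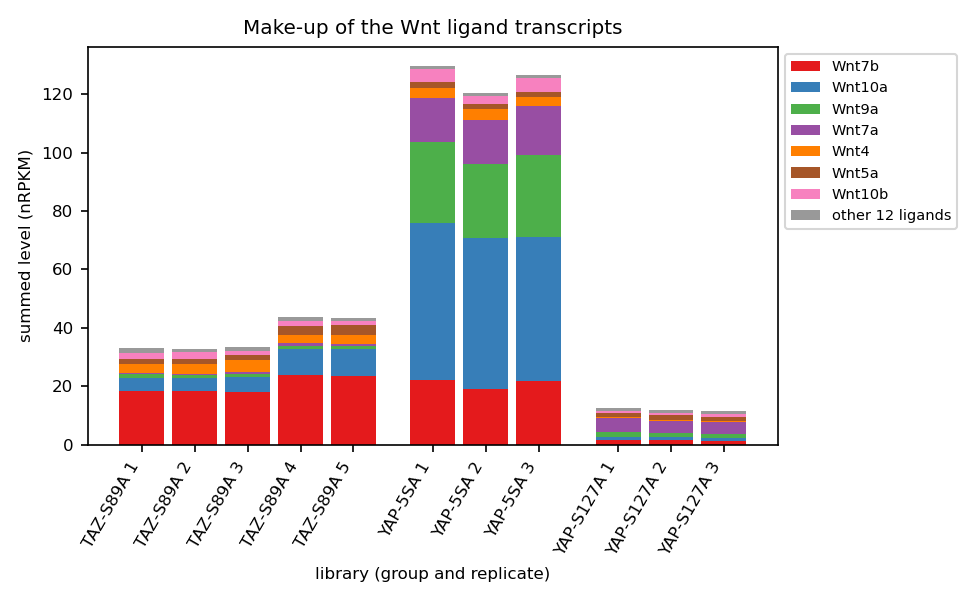
Summed nRPKM of the Wnt ligands (vertical axis, from 0) in each library, split by ligand, with the 12 ligands of lowest level drawn as 1 segment. The TAZ-S89A bars stand between 32.8 and 43.7, those of YAP-5SA between 120.3 and 129.7 and those of YAP-S127A between 11.5 and 12.7.

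Wnt7b, Wnt4 and Wnt6 shared a pattern in which TAZ-S89A and YAP-5SA stood well above YAP-S127A. Wnt7b (Entrez gene 22422, chromosome 15, 85535437 to 85581821) is a ligand that acts through beta-catenin in lung and brain vessels. It was at 103, 102, 99.1, 122 and 121 CPM in TAZ-S89A, 119, 103 and 118 CPM in YAP-5SA and 9.23, 9.32 and 6.86 CPM in YAP-S127A. All libraries of the first 2 groups lay above every YAP-S127A library, and those groups overlapped each other. The difference from YAP-S127A was called for TAZ-S89A (3.69, SE 0.17, adjusted p = 3.49e-10) and for YAP-5SA (3.74, SE 0.18, adjusted p = 8.88e-10). Between TAZ-S89A and YAP-5SA it was not called (-0.05, SE 0.14, adjusted p = 0.763), with a 95% interval of -0.35 to 0.25 for the log2 difference.

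Wnt4 (Entrez gene 22417, chromosome 4, 137277635 to 137299501), needed for kidney tubules and the female gonad, was at 14.6, 15.3, 19.1, 12.6 and 13.7 CPM in TAZ-S89A, 16.0, 17.6 and 14.5 CPM in YAP-5SA and 1.67, 2.07 and 1.64 CPM in YAP-S127A. The YAP-S127A libraries were again the low ones, without overlap. It was called higher than in YAP-S127A in TAZ-S89A (3.08, SE 0.18, adjusted p = 4.92e-09) and in YAP-5SA (3.17, SE 0.19, adjusted p = 8.95e-09), and not called between TAZ-S89A and YAP-5SA (95% interval -0.41 to 0.23). Wnt6 (Entrez gene 22420, chromosome 1, 74754342 to 74785322), a ligand of epithelia such as surface ectoderm, was far less abundant. Its levels were 2.36, 1.18, 1.97, 1.71 and 1.71 CPM in TAZ-S89A, 1.42, 1.24 and 1.11 CPM in YAP-5SA and 0.0891, 0.0656 and 0.0555 CPM in YAP-S127A, the last group resting on 8 counts in all. The difference from YAP-S127A was called for TAZ-S89A (4.58, SE 0.37, adjusted p = 1.3e-07) and YAP-5SA (4.07, SE 0.39, adjusted p = 9.88e-07). TAZ-S89A against YAP-5SA was not called for Wnt6 (0.51, SE 0.24, adjusted p = 0.0792). Leaving out TAZ-S89A replicate 2 gave a call there, at 0.64 with an adjusted p of 0.023.

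Wnt10a, Wnt9a, Wnt7a and Wnt10b were highest in YAP-5SA. Wnt10a (Entrez gene 22409, chromosome 1, 74792019 to 74804176), a ligand of teeth, hair and other skin appendages, was at 10.6, 10.9, 13.1, 20.3 and 21.4 CPM in TAZ-S89A, 129.7, 125 and 119 CPM in YAP-5SA and 2.34, 1.77 and 2.19 CPM in YAP-S127A. The 3 groups formed separate steps, with TAZ-S89A in between, and within TAZ-S89A replicates 4 and 5 stood above replicates 1 to 3. All 3 comparisons were called, TAZ-S89A against YAP-S127A (2.84, SE 0.26, adjusted p = 5.74e-07), TAZ-S89A against YAP-5SA (-3.03, SE 0.22, adjusted p = 3.48e-08) and YAP-5SA against YAP-S127A (5.88, SE 0.31, adjusted p = 2.38e-09). Wnt10b (Entrez gene 22410, chromosome 15, 98770712 to 98778206), which favours bone over fat formation, was at 6.35, 7.11, 4.55, 4.69 and 4.05 CPM in TAZ-S89A, 13.0, 7.77 and 14.0 CPM in YAP-5SA and 1.74, 2.07 and 2.58 CPM in YAP-S127A. The order was that of Wnt10a with smaller steps, and it too was called in TAZ-S89A against YAP-S127A (1.34, SE 0.26, adjusted p = 0.000506), TAZ-S89A against YAP-5SA (-1.10, SE 0.23, adjusted p = 0.000824) and YAP-5SA against YAP-S127A (2.45, SE 0.28, adjusted p = 5.15e-06).

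Wnt9a (Entrez gene 216795, chromosome 11, 59306849 to 59333552) takes part in joint formation. Its levels were 5.45, 4.43, 4.64, 4.44 and 3.17 CPM in TAZ-S89A, 115, 106 and 117 CPM in YAP-5SA and 7.04, 6.63 and 6.5 CPM in YAP-S127A. YAP-5SA stood alone, far above YAP-S127A (4.07, SE 0.18, adjusted p = 4.35e-10), and TAZ-S89A lay below both YAP-5SA (-4.66, SE 0.15, adjusted p = 9.28e-12) and, by a small step, YAP-S127A (-0.59, SE 0.15, adjusted p = 0.00317). Wnt7a (Entrez gene 22421, chromosome 6, 91363981 to 91411353), the close relative of Wnt7b that patterns the back of the limb, was at 1.75, 1.52, 2.38, 3.79 and 3.55 CPM in TAZ-S89A, 58.9, 58.8 and 64.6 CPM in YAP-5SA and 18.0, 15.1 and 16.2 CPM in YAP-S127A. Here TAZ-S89A was the low group and YAP-S127A the middle one. It was called lower in TAZ-S89A than in YAP-S127A (-2.70, SE 0.24, adjusted p = 3.52e-07) and YAP-5SA (-4.59, SE 0.24, adjusted p = 1.47e-09), and higher in YAP-5SA than in YAP-S127A (1.89, SE 0.26, adjusted p = 3.22e-05). The paralogs Wnt7a and Wnt7b therefore fell to opposite sides between TAZ-S89A and YAP-S127A, Wnt7a lower and Wnt7b higher in TAZ-S89A.

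Other ligands were low or even. Wnt5a (Entrez gene 22418, chromosome 14, 28504543 to 28527448), the best-known ligand of beta-catenin-independent signalling, was at 14.7, 14.7, 14.0, 23.7 and 25.8 CPM in TAZ-S89A, 14.7, 13.4 and 15.2 CPM in YAP-5SA and 12.9, 14.3 and 10.6 CPM in YAP-S127A. Replicates 4 and 5 of TAZ-S89A were the high libraries, and the rest of the groups overlapped. Its call in TAZ-S89A against YAP-S127A (0.55, SE 0.21, adjusted p = 0.0386) was lost without these replicates, at 0.18 and an adjusted p of 0.238. It was also lost when any of 5 libraries was left out singly. The adjusted p was then 0.0683 for TAZ-S89A replicate 4 and 0.0737 for replicate 5, 0.0506 for YAP-5SA replicate 1, and 0.0869 for YAP-S127A replicate 1 and 0.153 for replicate 3. Limma-voom (adjusted p = 0.0563) and an edgeR fit of only the groups compared (adjusted p = 0.0687) did not call it either. The other comparisons of Wnt5a were not called.

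Its paralog Wnt5b was seen mainly in YAP-S127A, at 0.0944, 0, 0.377, 0.0815 and 0.0835 CPM in TAZ-S89A, 0.0534, 0 and 0.0968 CPM in YAP-5SA and 0.691, 1.02 and 1.11 CPM in YAP-S127A. It was called lower in TAZ-S89A (-2.87, SE 0.61, adjusted p = 0.00124) and YAP-5SA (-4.14, SE 0.82, adjusted p = 0.000672) than in YAP-S127A, the TAZ-S89A value moving to -3.85 without TAZ-S89A replicate 3 and the YAP-5SA value to -5.02 without YAP-5SA replicate 3. Wnt2, an endothelial ligand of the liver and of lung development, was at 1.96, 1.54, 2.93, 0.448 and 0.417 CPM in TAZ-S89A, 0.0802, 0.358 and 0.266 CPM in YAP-5SA and 0.847, 0.853 and 1.19 CPM in YAP-S127A. In TAZ-S89A replicates 1 to 3 lay above every YAP-S127A library, and replicates 4 and 5 below. Against YAP-5SA it was called higher in TAZ-S89A (2.64, SE 0.64, adjusted p = 0.00272). Against YAP-S127A it was not called (0.64, SE 0.53, adjusted p = 0.316). With replicates 4 and 5 left out it was, at 1.12 with an adjusted p of 0.0129. YAP-5SA was called lower than YAP-S127A for Wnt2 (-1.999, SE 0.70, adjusted p = 0.0254), a call lost without YAP-5SA replicate 1 (0.0898), YAP-5SA replicate 3 (0.0548) or YAP-S127A replicate 3 (0.0696).

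Wnt11, which guides convergent cell movements, was at 0.566, 0.847, 0.667, 1.02 and 0.876 CPM in TAZ-S89A, 0.0802, 0.0717 and 0.411 CPM in YAP-5SA and 1, 0.984 and 0.944 CPM in YAP-S127A. YAP-5SA was the low group, called against TAZ-S89A (2.03, SE 0.46, adjusted p = 0.00164) and YAP-S127A (-2.34, SE 0.48, adjusted p = 0.000893), and these values were 3.31 and -3.63 without YAP-5SA replicate 3. Wnt2b ranged from 0.522 to 2.62 CPM over all libraries and was called in TAZ-S89A against YAP-5SA alone (-0.99, SE 0.32, adjusted p = 0.0177), not without YAP-5SA replicate 1 (adjusted p = 0.098). Wnt2b and Wnt5b overlap St7l, with 14470 counts over all libraries, and Fbxl14, with 9939, and the strand setting is not known, so their low counts may hold reads of these neighbours. Among untested ligands Wnt1, the first Wnt found as a mammary oncogene, had 19 counts over the TAZ-S89A libraries, with counts in each of them, and 0 in both YAP groups. Against the floor of 3 counts over a group that is at least 4.49-fold higher than in YAP-5SA and at least 4.14-fold higher than in YAP-S127A, by counting error only. Wnt16, a ligand of cortical bone, had 3 counts in TAZ-S89A, 21 in YAP-5SA and 19 in YAP-S127A, a pooled ratio of TAZ-S89A to YAP-S127A of 0.103 (0.0196 to 0.351). Of the YAP-5SA counts 15 were in replicate 2, so no ratio is given for that group. Wnt8a and Wnt8b had at most 8 counts in a group, and Wnt3 at most 2.

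**Figure D3:**
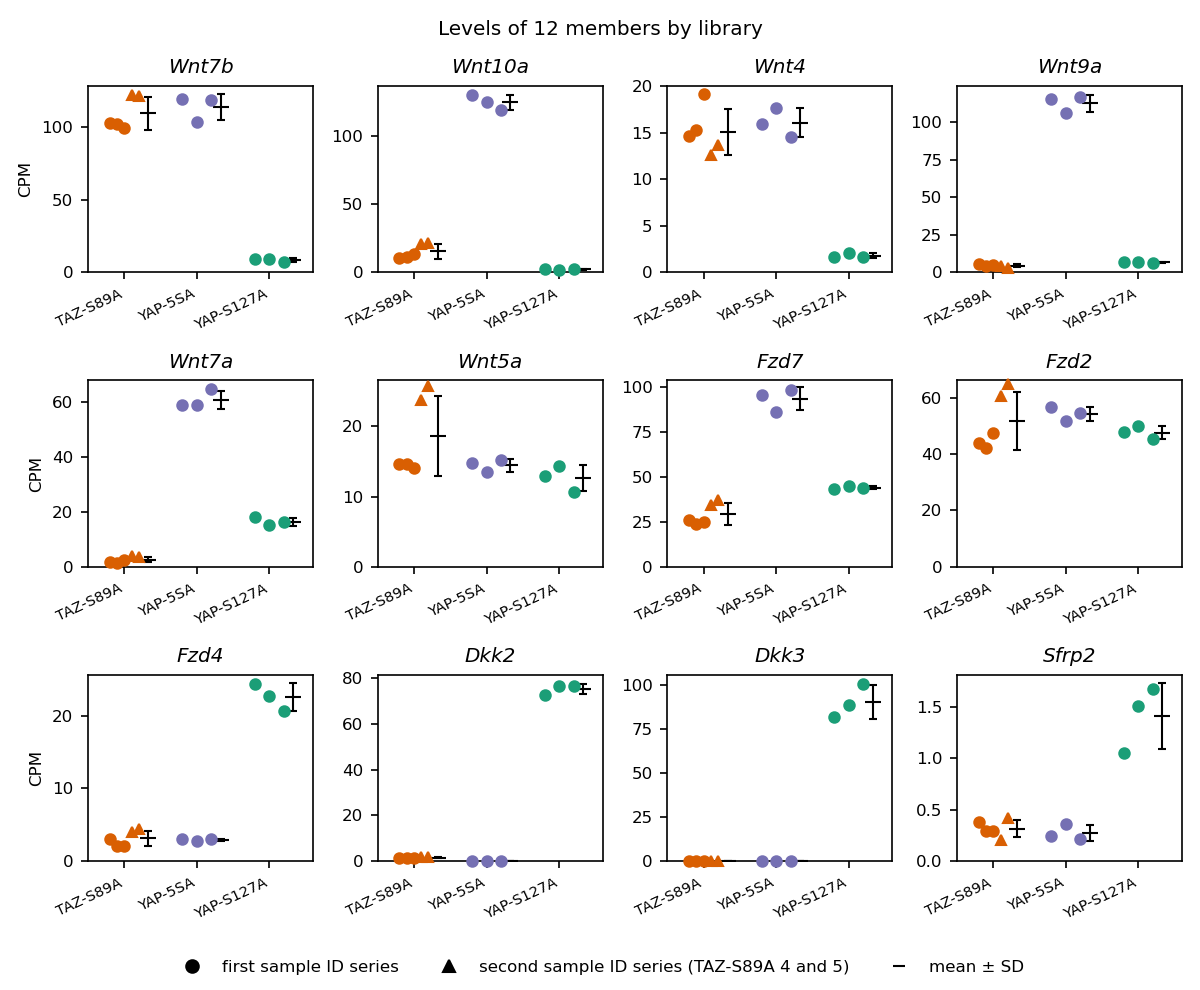
CPM (vertical axes, from 0, 1 scale per gene) of 12 members in every library, with circles for the first sample ID series, triangles for TAZ-S89A replicates 4 and 5, and the mean ± SD in black, cut at 0. Wnt7b and Wnt4 are low in YAP-S127A, Wnt10a and Wnt9a are high in YAP-5SA, Dkk2, Dkk3, Fzd4 and Sfrp2 are high in YAP-S127A, and Fzd2 overlaps between TAZ-S89A and both YAP groups.

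DNA ahead of an annotated start is shown for 3 of the ligands that differed and for Dkk2. RefSeq promoter windows on GRCm38.p6 matched 25 of the 37 members, with 28 windows. Wnt7b, Wnt10a and Dkk3 were among the members without a window. The 250 bases upstream of a start in that table are shown, with each CG pair in capitals. They are given for Wnt4 and Wnt6, low in YAP-S127A, for Wnt9a, high in YAP-5SA, and for Dkk2, high in YAP-S127A. The Wnt6 window lies inside the span given for the gene (74754342 to 74785322). Those of Wnt9a and Dkk2 end past the gene starts given (59306849 and 132085266). These 3 windows thus belong to starts within the gene.
Wnt4 (chr4:137277385-137277634, + strand): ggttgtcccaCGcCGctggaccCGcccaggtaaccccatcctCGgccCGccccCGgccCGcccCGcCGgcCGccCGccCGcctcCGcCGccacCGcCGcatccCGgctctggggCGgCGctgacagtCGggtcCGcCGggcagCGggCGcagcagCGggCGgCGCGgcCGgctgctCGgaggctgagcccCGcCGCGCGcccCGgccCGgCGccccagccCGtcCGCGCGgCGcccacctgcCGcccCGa
Wnt6 (chr1:74771642-74771891, + strand): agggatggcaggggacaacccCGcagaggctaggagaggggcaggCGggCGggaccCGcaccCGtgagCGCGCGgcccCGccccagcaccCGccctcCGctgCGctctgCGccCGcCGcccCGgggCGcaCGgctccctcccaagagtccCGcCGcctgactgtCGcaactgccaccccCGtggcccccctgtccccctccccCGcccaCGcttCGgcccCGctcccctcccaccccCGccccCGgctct
Wnt9a (chr11:59306680-59306929, + strand): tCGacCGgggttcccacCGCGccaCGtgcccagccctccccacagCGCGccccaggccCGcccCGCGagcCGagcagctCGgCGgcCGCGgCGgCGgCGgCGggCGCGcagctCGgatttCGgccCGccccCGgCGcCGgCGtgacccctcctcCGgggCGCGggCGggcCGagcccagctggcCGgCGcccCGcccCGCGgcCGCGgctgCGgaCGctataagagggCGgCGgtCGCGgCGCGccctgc
Dkk2 (chr3:132085042-132085291, + strand): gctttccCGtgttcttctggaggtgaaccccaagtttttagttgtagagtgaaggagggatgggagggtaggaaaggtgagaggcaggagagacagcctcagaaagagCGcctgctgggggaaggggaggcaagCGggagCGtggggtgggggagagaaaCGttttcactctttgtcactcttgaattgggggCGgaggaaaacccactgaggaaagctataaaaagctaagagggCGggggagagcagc
The 3 ligand windows were dense in CG pairs, with 44 in Wnt4, 28 in Wnt6 and 48 in Wnt9a at a GC content of 85.2%, 79.6% and 84.4%, whereas the Dkk2 window held 7 at 55.6%. Of windows not shown, Wnt7a and Wnt10b, highest in YAP-5SA, held 34 at 77.6% and 14 at 66.8%. That of Fzd4, highest in YAP-S127A, held 25 at 72.8%. A link between CG pairs and level was not tested. Over the 28 windows of members the median was 22 CG pairs and 69.4% GC, and over the 32851 windows of all genes it was 6 and 52.4%. The core motif of the TCF/LEF partners of beta-catenin, CTTTGA on either strand, was in 4 of the 28 windows (14.3%) and in 13.8% of all windows, in those of Fzd1, Dkk1, Wnt11 and Wnt5b. The TEAD core GGAATG on either strand was in 0 of the 28 windows and in 12.6% of all windows. The letters TATAAA on the gene's strand were in 4 of 28 windows, Dkk2 among them, and in 7.59% of all windows. A match or its absence in 250 bases is a description of the sequence only.

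The Frizzled receptors varied less in sum than the ligands. Their summed level was 36.8 ± 6.34 nRPKM in TAZ-S89A, 47.9 ± 2.54 in YAP-5SA and 37.2 ± 1.17 in YAP-S127A. Fzd2 took 31.8% and Fzd6 30.1% of the receptor sum in TAZ-S89A, Fzd7 33.1% and Fzd2 25.4% in YAP-5SA, and Fzd2 28.9% and Fzd7 20.2% in YAP-S127A. Fzd2 (Entrez gene 57265, chromosome 11, 102604431 to 102608058), which can signal with or without beta-catenin, stood at 43.8, 42.0, 47.6, 60.6 and 64.9 CPM in TAZ-S89A, 56.5, 51.6 and 54.4 CPM in YAP-5SA and 47.6, 49.7 and 45.3 CPM in YAP-S127A. No comparison called it, and the 95% interval of the log2 difference was -0.20 to 0.44 for TAZ-S89A against YAP-S127A, -0.39 to 0.25 for TAZ-S89A against YAP-5SA and -0.17 to 0.55 for YAP-5SA against YAP-S127A. Without TAZ-S89A replicates 4 and 5, its 2 highest libraries, Fzd2 was called lower in TAZ-S89A than in YAP-5SA at -0.27 (adjusted p = 0.046).

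Fzd7 (Entrez gene 14369, chromosome 1, 59482147 to 59486955), of the same subfamily as Fzd1 and Fzd2 and known from stem cells, was at 26.0, 23.9, 25.1, 34.3 and 37.4 CPM in TAZ-S89A, 96.0, 86.3 and 98.4 CPM in YAP-5SA and 43.3, 44.8 and 43.9 CPM in YAP-S127A. The groups did not overlap, YAP-5SA being high and TAZ-S89A low. It was called in TAZ-S89A against YAP-S127A (-0.59, SE 0.15, adjusted p = 0.00446) and YAP-5SA (-1.68, SE 0.15, adjusted p = 3.41e-07) and in YAP-5SA against YAP-S127A (1.09, SE 0.17, adjusted p = 0.000109). Fzd1 had the opposite order between the YAP groups, at 15.6, 13.5, 16.7, 18.5 and 19.2 CPM in TAZ-S89A, 11.9, 10.5 and 11.3 CPM in YAP-5SA and 31.5, 29.0 and 29.9 CPM in YAP-S127A. It was called lower than in YAP-S127A in TAZ-S89A (-0.85, SE 0.13, adjusted p = 5.94e-05) and YAP-5SA (-1.43, SE 0.15, adjusted p = 1.97e-06), and higher in TAZ-S89A than in YAP-5SA (0.57, SE 0.13, adjusted p = 0.00207).

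Fzd4 (Entrez gene 14366, chromosome 7, 89404366 to 89410110), the receptor of norrin in retinal vessels, was at 3.07, 2.14, 2.15, 4 and 4.38 CPM in TAZ-S89A, 3.05, 2.80 and 3.05 CPM in YAP-5SA and 24.4, 22.7 and 20.6 CPM in YAP-S127A. YAP-S127A was the high group, called against TAZ-S89A (-2.86, SE 0.21, adjusted p = 5.7e-08) and YAP-5SA (-2.93, SE 0.25, adjusted p = 3.44e-07). Fzd4 overlaps Tmem135, which had 6916 counts over all libraries, so reads may be shared there too. Fzd3 and Fzd6 are the receptors of axon guidance and of planar polarity in skin, and they did not go together. Fzd3 was at 9.58, 8.11, 7.57, 9.17 and 7.43 CPM in TAZ-S89A, 1.60, 1.98 and 1.19 CPM in YAP-5SA and 8.02, 9.05 and 9.53 CPM in YAP-S127A, low in YAP-5SA only, where it was called against TAZ-S89A (2.39, SE 0.19, adjusted p = 9.81e-08) and YAP-S127A (-2.47, SE 0.20, adjusted p = 1.85e-07). Fzd6 was at 52.0, 45.9, 62.1, 64.6 and 62.2 CPM in TAZ-S89A, 39.0, 48.4 and 43.5 CPM in YAP-5SA and 23.3, 21.0 and 23.6 CPM in YAP-S127A, low in YAP-S127A. It was called higher than in YAP-S127A in TAZ-S89A (1.34, SE 0.14, adjusted p = 2.27e-06) and YAP-5SA (0.95, SE 0.15, adjusted p = 0.000124). The small step of Fzd6 between TAZ-S89A and YAP-5SA (0.39, SE 0.14, adjusted p = 0.0232) was not called without TAZ-S89A replicate 4 (0.0517), YAP-5SA replicate 1 (0.118) or YAP-5SA replicate 3 (0.0638).

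Fzd5, which acts in the eye and in intestinal Paneth cells, was at 37.1, 33.8, 26.8, 26.0 and 26.2 CPM in TAZ-S89A, 65.8, 46.7 and 65.7 CPM in YAP-5SA and 37.3, 34.8 and 32.0 CPM in YAP-S127A. It was higher in YAP-5SA than in YAP-S127A (0.78, SE 0.18, adjusted p = 0.00205) and lower in TAZ-S89A than in YAP-5SA (-0.98, SE 0.15, adjusted p = 8.99e-05). Fzd8 was at 4.53, 3.86, 4.03, 5.63 and 5.05 CPM in TAZ-S89A, 7.40, 5.88 and 7.91 CPM in YAP-5SA and 6.53, 7.02 and 6.80 CPM in YAP-S127A, lower in TAZ-S89A than in YAP-5SA (-0.62, SE 0.16, adjusted p = 0.00422) and YAP-S127A (-0.56, SE 0.16, adjusted p = 0.00846). Fzd9 ranged from 0.201 to 0.693 CPM over all libraries and was not called in any comparison. Fzd10 had 11 counts over TAZ-S89A, 57 over YAP-5SA and 0 over YAP-S127A. That is at least 2.40-fold higher in TAZ-S89A and at least 17.55-fold higher in YAP-5SA than in YAP-S127A, taking that group at the floor of 3 counts, and TAZ-S89A was lower than YAP-5SA (-2.78, SE 0.55, adjusted p = 0.000913; -3.41 without TAZ-S89A replicates 4 and 5). The TAZ-S89A call against YAP-S127A (adjusted p = 0.025) was lost without replicates 4 and 5 (0.0695), YAP-S127A replicate 1 (0.0666) or YAP-S127A replicate 3 (0.0547).

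The 5 tested antagonists, Dkk2, Dkk3, Sfrp1, Sfrp2 and Sfrp4, were highest in YAP-S127A. Of these Dkk3 and Sfrp1 had passed the count filter through that group alone. Dkk2 (Entrez gene 56811, chromosome 3, 132085266 to 132180304), which binds the Lrp co-receptors like Dkk1 and can block or mildly activate them, was at 1.53, 1.58, 1.33, 1.92 and 1.67 CPM in TAZ-S89A, 0.267, 0.0239 and 0.0968 CPM in YAP-5SA and 72.4, 76.4 and 76.3 CPM in YAP-S127A. Every YAP-S127A library was far above the rest, and TAZ-S89A lay above YAP-5SA without overlap. It was called lower in TAZ-S89A (-5.55, SE 0.21, adjusted p = 6.42e-11) and in YAP-5SA (-9.19, SE 0.34, adjusted p = 1.19e-10) than in YAP-S127A, and higher in TAZ-S89A than in YAP-5SA (3.64, SE 0.35, adjusted p = 7.62e-07). YAP-5SA held 15 counts of Dkk2 in all, 10 of them in replicate 1, and without that library the log2 fold changes were 4.65 for TAZ-S89A against YAP-5SA and -10.20 for YAP-5SA against YAP-S127A.

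Dkk3 (Entrez gene 50781, chromosome 7, 112116019 to 112159482), the most divergent Dkk, whose part in Wnt signalling is not settled, was at 0.165, 0.0446, 0.116, 0 and 0 CPM in TAZ-S89A, 0.134, 0.143 and 0.387 CPM in YAP-5SA and 82.0, 88.4 and 101 CPM in YAP-S127A. Its contrast with YAP-S127A was called in TAZ-S89A (-10.16, SE 0.36, adjusted p = 3.13e-11) and in YAP-5SA (-8.64, SE 0.40, adjusted p = 7.77e-10). These rest on 13 counts over TAZ-S89A and 27 over YAP-5SA, so the sizes are loose, at -10.81 without TAZ-S89A replicate 1 and -9.31 without YAP-5SA replicate 3. Between TAZ-S89A and YAP-5SA the call (-1.52, SE 0.61, adjusted p = 0.0459) was lost without YAP-5SA replicate 3, at -0.85 and an adjusted p of 0.317. It was lost too when any of 6 other libraries was left out. For TAZ-S89A the adjusted p was then 0.102 (replicate 2), 0.0589 (replicate 4) and 0.0601 (replicate 5), and for YAP-S127A 0.0547, 0.0567 and 0.0539 in the order of replicates. Leaving out TAZ-S89A replicate 1 gave -2.18. Dkk1, the prototype Lrp blocker and a common beta-catenin and YAP target, had 0, 1 and 4 counts over TAZ-S89A, YAP-5SA and YAP-S127A. Dkk4 had 1 count in TAZ-S89A and 0 elsewhere. On nRPKM, Dkk3 with 21.0 ± 1.97 and Dkk2 with 16.2 ± 0.431 (SD, n = 3) stood above every ligand in YAP-S127A, where the leading ligand Wnt7a was at 4.25 ± 0.389.

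Sfrp genes were low throughout, and Sfrp1, Sfrp2 and Sfrp4 were highest in YAP-S127A. Sfrp2 was at 0.377, 0.290, 0.290, 0.204 and 0.417 CPM in TAZ-S89A, 0.240, 0.358 and 0.218 CPM in YAP-5SA and 1.05, 1.51 and 1.67 CPM in YAP-S127A, and Sfrp4, which also modulates Wnt signalling in bone, at 0.590, 0.535, 0.754, 0.122 and 0.334 CPM in TAZ-S89A, 0.561, 0.454 and 0.339 CPM in YAP-5SA and 1.11, 1.48 and 1.44 CPM in YAP-S127A. YAP-S127A did not overlap the other groups for these genes. TAZ-S89A was lower than YAP-S127A for Sfrp1 (-3.53, SE 0.61, adjusted p = 0.000225), Sfrp2 (-2.13, SE 0.28, adjusted p = 1.87e-05) and Sfrp4 (-1.45, SE 0.35, adjusted p = 0.00305). YAP-5SA was lower for Sfrp1 (-1.89, SE 0.57, adjusted p = 0.0118), Sfrp2 (-2.34, SE 0.33, adjusted p = 3.48e-05) and Sfrp4 (-1.57, SE 0.41, adjusted p = 0.00474). No Sfrp gene was called between TAZ-S89A and YAP-5SA, although Sfrp1 (-1.64, adjusted p = 0.0736) was when TAZ-S89A replicate 4 (0.0375), YAP-5SA replicate 2 (0.0472) or both TAZ-S89A replicates 4 and 5 (0.0335) were left out. Sfrp1 held 8, 19 and 67 counts over TAZ-S89A, YAP-5SA and YAP-S127A, and its YAP-5SA call was lost without YAP-5SA replicate 1 (0.053), YAP-5SA replicate 2 (0.0556) or YAP-S127A replicate 3 (0.0589). It was -2.91 without YAP-5SA replicate 3, and against YAP-S127A the TAZ-S89A value was -4.44 without replicates 4 and 5. Sfrp5 had 28, 13 and 12 counts over TAZ-S89A, YAP-5SA and YAP-S127A and was not tested.

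The summed fibroblast markers were also highest in YAP-S127A. Of the 11 genes 7 reached a mean of 1 CPM there, against 6 in TAZ-S89A and 6 in YAP-5SA. Lum and Lrat were at 0 counts in TAZ-S89A and YAP-S127A. Of the 8 tested, 6 were lower and 1 higher in TAZ-S89A than in YAP-S127A (median log2 fold change -3.39). In YAP-5SA 7 were lower and 0 higher than in YAP-S127A (median -6.42). Over all genes 30.6% were lower and 27% higher in the first of these comparisons, and 27% lower and 28.2% higher in the second. Between TAZ-S89A and YAP-5SA, 5 of the 8 were higher and 2 lower in TAZ-S89A, beside 26.9% and 31% of all genes. Of the antagonists Dkk2 was higher there, Dkk3 was lower and no Sfrp gene was called. The collagen gene Col3a1 was at 11.2 ± 2.10, 6.36 ± 0.311 and 559 ± 16.7 CPM (SD) in TAZ-S89A, YAP-5SA and YAP-S127A. The part of these marker genes in the Dkk and Sfrp results was not tested, and in bulk libraries fewer cells of a type cannot be told apart from less RNA per cell. The ligands Wnt7b, Wnt10a, Wnt10b, Wnt4 and Wnt6 stood lowest in YAP-S127A, where the summed level of the biliary and progenitor list was also lowest. Its genes differed in direction, since of 8 tested 3 were higher and 3 lower in TAZ-S89A against YAP-S127A (median log2 fold change 0.09), and 4 were higher and 2 lower in YAP-5SA against YAP-S127A (median -0.08). Macrophage and leukocyte markers, 10 genes, summed to 27.6 to 37.1 CPM in TAZ-S89A, 85.8 to 97.6 CPM in YAP-5SA and 23.8 to 28.5 CPM in YAP-S127A. Like the sum of the hepatocyte markers, theirs was thus highest in the group where Wnt7a, Wnt9a, Wnt10a and Wnt10b were highest. Of the macrophage and leukocyte markers 3, 4 and 4 reached a mean of 1 CPM in TAZ-S89A, YAP-5SA and YAP-S127A. The macrophage genes Adgre1 and Clec4f were at 0 counts in TAZ-S89A and YAP-S127A and at 0.210 ± 0.0761 and 0.00891 ± 0.0154 CPM (SD) in YAP-5SA. Of 6 tested, 5 were lower in TAZ-S89A against YAP-5SA and 5 higher in YAP-5SA against YAP-S127A. The part of these 3 lists in the ligand results was not tested. Endothelial markers, of which Erg was at 0 in TAZ-S89A and YAP-S127A, summed to at most 1.18, 1.57 and 2.63 CPM in a library of TAZ-S89A, YAP-5SA and YAP-S127A.

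Counted over the family, TAZ-S89A against YAP-S127A called 20 of the 27 tested members, 8 higher and 12 lower in TAZ-S89A. Over all 18224 genes tested in that comparison 57.6% were called, 27% higher and 30.6% lower. With a log2 fold change of at least 1 in size also asked for, 15 members passed, against 32.2% of all genes tested. The members' median log2 fold change was -0.32, beside -0.03 over all genes tested. By role, 6 of 12 tested ligands rose and 3 fell, 2 of 10 receptors rose and 4 fell, and all 5 tested antagonists fell. Among those that rose, the call of Wnt5a was lost in 10 of 21 alternatives and that of Fzd10 in 4 of 19. Among those that fell, Wnt5b, Sfrp1 and Dkk3 had passed the count filter through YAP-S127A alone, so their direction was favoured by selection.

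For TAZ-S89A against YAP-5SA 16 of 27 were called, 6 higher and 10 lower in TAZ-S89A, with a background of 57.9%, of which 26.9% higher and 31% lower. The added fold criterion left 11 members, with a background of 33.8%. The median was -0.07 for the members and -0.04 for all genes tested. Of the ligands 2 rose and 5 fell, and of the receptors 3 rose and 4 fell, while Dkk2 rose and Dkk3 fell. Fzd10, among the receptors that fell, had passed the count filter through YAP-5SA alone.

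In YAP-5SA against YAP-S127A 22 of 27 were called, 11 higher and 11 lower in YAP-5SA, with a background of 55.2%, of which 28.2% higher and 27% lower. The added fold criterion left 20 members, with a background of 34.4%. The median was 0.20 for the members and 0.01 for all genes tested. By role 7 ligands rose and 3 fell, 4 receptors rose and 3 fell, and all 5 tested antagonists fell. Wnt5b, Sfrp1 and Dkk3, which fell, had passed the count filter through YAP-S127A alone, and Fzd10, which rose, through YAP-5SA alone. Selection thus favoured the direction of these genes. The share of members called was 74.1%, 59.3% and 81.5% in the 3 comparisons, beside 57.6%, 57.9% and 55.2% of all genes. Since 4 members had passed the count filter through 1 group, the shares are a description, and the family was not tested against other genes. Since the comparisons share libraries, their values are given side by side only. Fzd2 and Fzd9 were called in none of the 3. Wnt7a, Wnt9a, Wnt10a, Wnt10b, Fzd1, Fzd6, Fzd7, Fzd10, Dkk2 and Dkk3 were called in each. Genes called in each comparison were not counted over all genes, so this is a listing only. Of these calls, that of Dkk3 in TAZ-S89A against YAP-5SA was lost in 10 of 20 alternatives, and that of Fzd6 there in 5 of 21. The call of Fzd10 in TAZ-S89A against YAP-S127A was lost in 4 of 19.

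**Figure D4:**
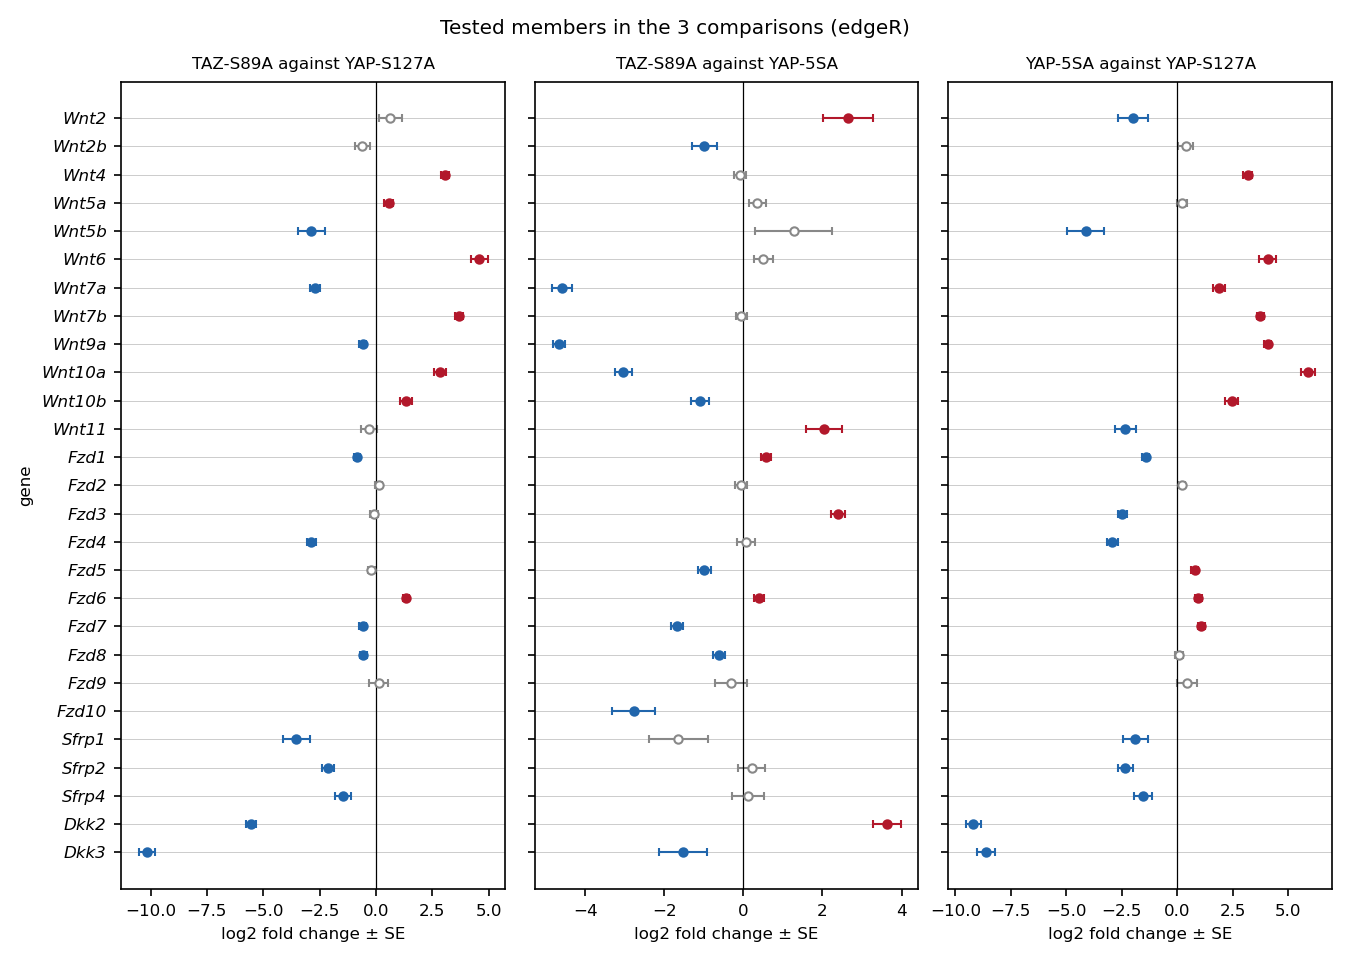
Log2 fold change ± SE (horizontal axes, edgeR) of the 27 tested members in the 3 comparisons, filled red where called higher, filled blue where called lower and open grey where not called. Fzd10 is left out where YAP-S127A has 0 counts, and Dkk2 and Dkk3 are the lowest points of both panels against YAP-S127A.

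The further parts of the pathway were described from 6 lists of 86 genes written from general knowledge. Their counts stand beside the shares of all genes called, 57.6% in TAZ-S89A against YAP-S127A, 57.9% in TAZ-S89A against YAP-5SA and 55.2% in YAP-5SA against YAP-S127A, and beside medians over all genes near 0 (-0.03, -0.04 and 0.01), and no list was tested against other genes. Wnt secretion and release genes were tested in 5 of 6 cases, with 1 higher and 2 lower in TAZ-S89A against YAP-S127A, 1 and 1 against YAP-5SA, and 1 and 1 in YAP-5SA against YAP-S127A. Wls, the carrier that brings Wnts to the cell surface, was present in every group, at 288 ± 92.7, 457 ± 183 and 377.4 ± 61.2 CPM (SD) in TAZ-S89A, YAP-5SA and YAP-S127A. Porcn, which attaches the lipid, was at 13.6 ± 1.83, 12.8 ± 1.51 and 10.9 ± 0.266 CPM. Both are given as levels only. The glypican Gpc4 was lower in TAZ-S89A than in YAP-S127A (-3.52, SE 0.27, adjusted p = 9.6e-08) and YAP-5SA (-3.40, SE 0.27, adjusted p = 1.18e-07).

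Of 14 tested co-receptors and polarity genes, 5 rose and 7 fell in TAZ-S89A against YAP-S127A, 5 rose and 5 fell against YAP-5SA, and 6 rose and 5 fell in YAP-5SA against YAP-S127A. The Wnt5a receptor Ror2 stood at 6.35, 6.57, 6.55, 9.42 and 10.3 CPM in TAZ-S89A, 6.12, 4.37 and 5.76 CPM in YAP-5SA and 1.05, 0.820 and 0.944 CPM in YAP-S127A. It was called higher than in YAP-S127A in TAZ-S89A (3.04, SE 0.24, adjusted p = 1.17e-07) and YAP-5SA (2.52, SE 0.25, adjusted p = 1.49e-06). The pseudokinase receptor Ptk7 was low in YAP-5SA, with 32.9 ± 9.01, 0.653 ± 0.0979 and 60.8 ± 0.266 CPM (SD) in TAZ-S89A, YAP-5SA and YAP-S127A.

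The R-spondins, their receptors and the ubiquitin ligases that clear Frizzleds formed 1 list, tested in 7 of 9 cases. In it 2 were higher and 4 lower in TAZ-S89A against YAP-S127A, 1 and 5 against YAP-5SA, and 5 and 1 in YAP-5SA against YAP-S127A. Lgr5, a stem cell marker and beta-catenin target, was at 22.2, 19.7, 12.6, 12.7 and 10.9 CPM in TAZ-S89A, 2.16, 1.24 and 1.96 CPM in YAP-5SA and 0.0669, 0.0328 and 0.0278 CPM in YAP-S127A. TAZ-S89A was the high group, called against YAP-S127A (8.35, SE 0.47, adjusted p = 2.89e-09) and YAP-5SA (3.13, SE 0.29, adjusted p = 4.53e-07). Rnf43, the ligase, was instead high in YAP-5SA, at 2.14 ± 0.523, 41.3 ± 7.03 and 4.34 ± 0.309 CPM (SD) in TAZ-S89A, YAP-5SA and YAP-S127A. Lgr6 followed it at 14.5 ± 1.94, 127.2 ± 17.4 and 19.0 ± 2.15 CPM.

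Of 12 further genes listed as secreted or membrane Wnt inhibitors 6 were tested. In this list 0 were higher and 5 lower in TAZ-S89A against YAP-S127A (median -2.60), 2 and 2 against YAP-5SA, and 1 higher and 4 lower in YAP-5SA against YAP-S127A. Of all genes 30.6% were lower in the first of these comparisons and 27% in the last. Frzb, the Sfrp family gene outside the symbol pattern, had 3, 0 and 206 counts over TAZ-S89A, YAP-5SA and YAP-S127A, so it too was seen in YAP-S127A. Cthrc1, a collagen triple helix protein made by activated fibroblasts, was at 0.143 ± 0.139, 9.75 ± 1.38 and 902 ± 103 CPM (SD). The counts above include Cthrc1, although it is not a plain Wnt inhibitor. Igfbp4, which can bind Frizzled and Lrp6 besides insulin-like growth factors, was at 4.03 ± 1.17, 699 ± 7.35 and 79.7 ± 2.41 CPM.

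All 23 cytoplasmic and nuclear pathway genes were tested, with 7 higher and 6 lower in TAZ-S89A against YAP-S127A, 8 and 4 against YAP-5SA, and 3 and 7 in YAP-5SA against YAP-S127A. Lef1, a beta-catenin partner on DNA, was at 1.67, 1.98, 1.42, 6.2 and 5.97 CPM in TAZ-S89A, 0, 0 and 0 CPM in YAP-5SA and 0.134, 0.164 and 0.111 CPM in YAP-S127A. It was present in TAZ-S89A, most in replicates 4 and 5, and at least 119-fold higher there than in YAP-5SA, taking that group at the floor of 3 counts. Against YAP-S127A it was called higher in TAZ-S89A (4.61, SE 0.71, adjusted p = 0.00016). Lef1 had passed the count filter through TAZ-S89A alone, so its direction was favoured by selection. Its relative Tcf7l1, mostly a repressor, was high in YAP-S127A, at 0.872 ± 0.207, 1.77 ± 0.440 and 14.1 ± 0.924 CPM (SD) in TAZ-S89A, YAP-5SA and YAP-S127A.

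Among beta-catenin targets 15 of 21 were tested, with 4 higher and 9 lower in TAZ-S89A against YAP-S127A (median -1.20), 2 and 6 against YAP-5SA (median -0.73), and 6 and 7 in YAP-5SA against YAP-S127A (median 0.35). The 8 called of 15 against YAP-5SA are near the 57.9% called over all genes. Axin2, a feedback inhibitor and the most general readout of beta-catenin signalling, was at 2.03, 1.20, 1.77, 2.28 and 1.63 CPM in TAZ-S89A, 12.1, 9.39 and 11.5 CPM in YAP-5SA and 9.85, 8.63 and 7.36 CPM in YAP-S127A. All TAZ-S89A libraries lay below all YAP libraries, and Axin2 was called lower against YAP-S127A (-2.28, SE 0.19, adjusted p = 2.15e-07) and YAP-5SA (-2.63, SE 0.19, adjusted p = 3.86e-08). Nkd2, another feedback inhibitor, was seen in YAP-S127A with 470 counts, beside 6 over TAZ-S89A and 9 over YAP-5SA. The cyclin gene Ccnd1 was at 199 ± 72.0, 2014 ± 132 and 503 ± 28.4 CPM (SD) in TAZ-S89A, YAP-5SA and YAP-S127A, lower in TAZ-S89A than in YAP-5SA (-3.34, SE 0.27, adjusted p = 1.32e-07). Other targets were higher in TAZ-S89A. Ephb2, an ephrin receptor of intestinal crypts, was at 3.65 ± 1.10, 0.389 ± 0.0360 and 0.248 ± 0.111 CPM (SD) in TAZ-S89A, YAP-5SA and YAP-S127A, called in TAZ-S89A against YAP-S127A (3.87, SE 0.35, adjusted p = 4.62e-07) and YAP-5SA (3.20, SE 0.32, adjusted p = 1.22e-06). Twist1, a transcription factor of mesenchymal cells, was at 27.1 ± 5.92, 6.02 ± 0.465 and 23.8 ± 1.42 CPM (SD), higher in TAZ-S89A than in YAP-5SA (2.17, SE 0.18, adjusted p = 1.79e-07).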

How the data were processed

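PolyA RNA from 11 libraries was used, grouped by the mutation label, with replicates numbered in order of deposition. The authors aligned reads with GSNAP to GRCm38, per the submitters' processing notes. Per the file headers, the deposited files give the count of uniquely aligned reads for each gene model by Entrez ID. Per the file headers they also give nRPKM, RPKM values that the authors scaled by a library size factor. Of the aligner's version, the annotation release and the strand setting, the sources used here say nothing. Without strand, genes that overlap others are uncertain, here Wnt2b (with St7l), Wnt5b (with Fbxl14), Fzd4 (with Tmem135), Wnt6, Wnt7a, Wnt7b, Wnt9a, Wnt10a, Wnt11 and Fzd6 (with long non-coding RNAs), Fzd3 (with pseudogenes) and Wnt3 with Wnt9b.

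Symbols came from RefSeq's GRCm38.p6 table, which matched 31049 of 36528 IDs, the unmatched ones holding 2.91% of counts. Counts were tested with edgeR 4.0.16 in R 4.3.3, with TMM factors, filterByExpr (18224 genes kept), a robust quasi-likelihood fit of the 3 groups over all 11 libraries and Benjamini-Hochberg adjustment over all genes kept. Groups at 0 counts were given bounds against 3 counts, and group totals of 1 to 3 counts pooled ratios with exact 95% binomial intervals, which cover counting error only. The functions were tested on simulated data. Alternatives were other factors, DESeq2 1.42.0, limma-voom (limma 3.58.1), other filters, only the groups compared, the ID series and leaving out each library. Leaving out TAZ-S89A replicates 2 and 5 together was chosen after seeing the data. Members, gene lists and tests were chosen with earlier results of these data known. Named genes are all members and, of each pathway list, up to 4 called genes per comparison with the largest fold change at an average log2 CPM of at least 0, of which those described here are a part. Alb, Apob, Adgre1, Clec4f, Col3a1, Erg, Lum, Lrat, Wls, Porcn, Frzb and the promoters shown were chosen after their values were seen.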

Additional observations from a re-analysis of the deposited data

Results flagged for a closer look

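Of the 27 tested members, 1 had a TAZ-S89A library far from the other 4. Wnt5b was at 0.377 CPM in TAZ-S89A replicate 3, while replicates 1, 2, 4 and 5 were at 0.0944, 0, 0.0815 and 0.0835 CPM. Chance puts about 1 in 20 such sets of 5 libraries past the threshold used.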

How the results depend on the processing

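Over 21 alternatives the members called numbered 17 to 22 in TAZ-S89A against YAP-S127A, 14 to 18 in TAZ-S89A against YAP-5SA and 18 to 22 in YAP-5SA against YAP-S127A, with 20, 16 and 22 as reported. In that order, leaving out the low-count filter gave 22, 18 and 22, and a stricter filter 17, 14 and 18. Both change how many members are tested, and the share of all genes called was not computed for the alternatives. Leaving out 1 library at a time gave 18 to 20, 14 to 17 and 20 to 22. The added fold criterion gave 15, 11 and 20. At a limit of 0.3 CPM in place of 0.1, near-zero members numbered 14, 17 and 12 in TAZ-S89A, YAP-5SA and YAP-S127A. Of 81 fold changes, 61 kept direction and side of the threshold in every alternative that gave a value, and all changes of sign were in fold changes that were not called. Their causes were not tested. In TAZ-S89A against YAP-S127A, Fzd2 turned to -0.11 without the second ID series and -0.096 with that series as a covariate, and Fzd9 to -0.43 and -0.41. Fzd9 was -0.0038 by limma-voom, and leaving out single libraries took it from -0.17 to 0.37. Fzd3 was 0.028 without TAZ-S89A replicates 2 and 5, where Fzd8 also lost its call (adjusted p = 0.0525), and ran from -0.15 to 0.0049 over single libraries left out. In TAZ-S89A against YAP-5SA, upper-quartile factors turned Fzd2 to 0.0057 and Wnt7b to 0.017, and limma-voom turned Fzd4 to -0.026 and Sfrp4 to -0.028. With the second ID series left out or as a covariate, Fzd4 came to -0.26 and -0.27 and Wnt4 to 0.044 and 0.025. Over single libraries left out Fzd2 ran from -0.14 to 0.0052, Fzd4 from -0.060 to 0.21, Sfrp4 from -0.068 to 0.32 and Wnt7b from -0.12 to 0.020. Fzd8 in YAP-5SA against YAP-S127A ran from -0.028 to 0.18. Wnt5b in TAZ-S89A against YAP-S127A, a called gene, was -2.26 without TAZ-S89A replicates 2 and 5. Other normalizations moved the median of all genes by at most 0.0653 on the log2 scale. No paired analysis was possible because the replicate numbers here only give the order of deposition. Depth limits Wnt3a and Wnt9b, at 0 counts, to 3 counts over a group.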

Other observations

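Several members are neighbours on a chromosome. Wnt6 and Wnt10a lie 6696 bases apart on chromosome 1, and both were lowest in YAP-S127A, but Wnt10a was 3.03 lower on the log2 scale in TAZ-S89A than in YAP-5SA while Wnt6 was not called there. Wnt9a and Wnt3a lie 16097 bases apart on chromosome 11. Wnt9a averaged 113 ± 5.61 CPM in YAP-5SA (SD, n = 3), and Wnt3a had 0 counts in all 11 libraries. Wnt10b and Wnt1 lie 11650 bases apart on chromosome 15, with Wnt1 at 19 counts over TAZ-S89A and 0 over both YAP groups and Wnt10b highest in YAP-5SA. The differences between neighbours were not tested.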
